A study of Mus musculus with 6 samples.

Results

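The genes described here are 31 cell cycle genes of mouse embryonic stem cells, 15 that act in or just before DNA replication (S phase) and 16 that act from G2 to the end of mitosis (G2/M). They were chosen by symbol, and each matched 1 of the 19532 gene rows of the deposited table. RNA was counted in single cells by SORT-seq, a method in which cells are sorted into plates and transcripts are tagged at their 3' end with a molecular identifier (UMI), in 6 libraries of 188 wells. The established lines R1 and IB10 were each sampled once per culture, and all 3 cultures contained LIF in serum-free N2B27 medium. LIF_2i cells, the naive culture, also had 3 µM CHIR99021 (a GSK3 inhibitor) and 0.1 µM PD325901 (a MEK inhibitor). Rosette_LIM cells, named for the rosette stage of the epiblast, had 2 µM IWP2 (which blocks WNT secretion) with 0.1 µM PD325901, kept up over 6 passages of R1 and 5 of IB10. Primed_4d cells had 12 ng/ml FGF2, 20 ng/ml human Activin A and 2 µM IWP2 for 4 days. Passage was 24 in R1 and 28 in IB10 for LIF_2i and primed_4d, but 28 and 33 for rosette_LIM, so culture and passage cannot be told apart there. No group was sorted by cell cycle phase or DNA content according to the labels, so every phase statement rests on RNA.

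Replication origins are licensed in G1 by loading the MCM helicase (Mcm2 to Mcm7) with the help of Cdc6. The enzymes that make and use deoxynucleotides then rise as cells enter S phase, largely under E2F transcription factors. Genes of G2 and mitosis are repressed in G1 and activated late in the cycle by the DREAM complex, B-MYB (Mybl2) and FOXM1 through a promoter element called CHR, often next to CCAAT boxes bound by NF-Y. Embryonic stem cells are known for a short G1 and a large share of cells in S phase.

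The promoters are shown because the 2 lists differ in the letters they carry at the start site. RefSeq promoter windows (GRCm38.p6, 250 bases before to 50 after the start) were found for 26 of the 31 members, 12 S phase and 14 G2/M. Mcm4, Gins2, Tipin, Aurkb and Tpx2 had no entry. Mcm7 had 2 windows, and a gene was counted where any of its windows held the motif. The CHR letters TTTGAA or TTCGAA, read on both strands (TTCGAA is its own reverse complement), stood in 11 of 14 G2/M members (78.6%), in 2 of 12 S phase members (16.7%) and in 21.7% of the 27025 genes of the RefSeq table. CCAAT stood in 13 of 14, in 9 of 12 and in 41.1%. Both together stood in 11 of 14, in 2 of 12 and in 8.6%. TTCCCGC was taken as an E2F core, as was TTGGCGC, on either strand, and so were the related letters TTCGCGC beside the form TTGCCGC. An E2F core stood in 4 of 14, in 7 of 12 and in 10.9%. A match describes letters and is no evidence of binding. The capitals mark these motifs on either strand, so that ATTGG is CCAAT on the other strand, and the motifs touch where a run of capitals is longer.
Ccnb2: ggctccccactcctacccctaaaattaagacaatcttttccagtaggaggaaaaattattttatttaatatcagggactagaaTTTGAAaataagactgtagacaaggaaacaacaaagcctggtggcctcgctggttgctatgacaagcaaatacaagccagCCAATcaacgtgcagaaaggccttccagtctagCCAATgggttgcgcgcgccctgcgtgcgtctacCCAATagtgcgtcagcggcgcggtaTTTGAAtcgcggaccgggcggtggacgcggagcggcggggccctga
Cdk1: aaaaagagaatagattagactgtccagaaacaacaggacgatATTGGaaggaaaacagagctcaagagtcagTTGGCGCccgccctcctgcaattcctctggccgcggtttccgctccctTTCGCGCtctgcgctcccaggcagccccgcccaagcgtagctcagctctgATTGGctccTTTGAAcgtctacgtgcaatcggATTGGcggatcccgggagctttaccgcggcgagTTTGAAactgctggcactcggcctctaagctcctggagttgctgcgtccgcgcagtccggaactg
Hmmr: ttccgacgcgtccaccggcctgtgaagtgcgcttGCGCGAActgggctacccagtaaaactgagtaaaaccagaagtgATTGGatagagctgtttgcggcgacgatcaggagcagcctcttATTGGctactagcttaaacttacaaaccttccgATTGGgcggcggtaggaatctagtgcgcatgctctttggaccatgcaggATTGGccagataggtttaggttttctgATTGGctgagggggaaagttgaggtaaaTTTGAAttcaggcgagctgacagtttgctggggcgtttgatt
Ube2c: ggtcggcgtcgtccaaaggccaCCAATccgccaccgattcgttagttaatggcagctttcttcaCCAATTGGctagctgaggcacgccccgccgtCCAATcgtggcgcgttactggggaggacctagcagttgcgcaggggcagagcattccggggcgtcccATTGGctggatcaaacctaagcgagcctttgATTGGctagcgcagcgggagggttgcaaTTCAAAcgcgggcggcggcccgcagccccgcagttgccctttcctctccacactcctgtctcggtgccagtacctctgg
Bub1: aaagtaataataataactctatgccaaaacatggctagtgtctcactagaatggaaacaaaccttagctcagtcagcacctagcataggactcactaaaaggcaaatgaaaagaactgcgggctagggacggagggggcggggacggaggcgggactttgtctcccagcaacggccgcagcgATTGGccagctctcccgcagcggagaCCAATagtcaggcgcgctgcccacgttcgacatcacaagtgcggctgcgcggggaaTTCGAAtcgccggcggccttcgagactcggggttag
Rrm2: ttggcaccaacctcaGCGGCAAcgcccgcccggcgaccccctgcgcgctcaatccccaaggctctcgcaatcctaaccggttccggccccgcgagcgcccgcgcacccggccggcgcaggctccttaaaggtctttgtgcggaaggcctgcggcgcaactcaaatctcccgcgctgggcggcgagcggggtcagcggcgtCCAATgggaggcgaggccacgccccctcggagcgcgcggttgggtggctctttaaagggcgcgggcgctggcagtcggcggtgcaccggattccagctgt
Cdc6: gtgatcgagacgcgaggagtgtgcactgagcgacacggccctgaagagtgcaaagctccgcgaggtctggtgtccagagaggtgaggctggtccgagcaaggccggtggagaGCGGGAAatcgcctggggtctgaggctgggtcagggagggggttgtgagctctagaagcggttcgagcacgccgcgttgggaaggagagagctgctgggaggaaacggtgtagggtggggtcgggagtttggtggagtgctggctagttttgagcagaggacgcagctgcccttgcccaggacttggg
The windows lie at chr9:70421505-70421804 (minus strand), chr10:69352863-69353162 (minus), chr11:40733388-40733687 (minus), chr2:164769679-164769978 (plus), chr2:127831810-127832109 (minus), chr12:24708004-24708303 (plus) and chr11:98907901-98908200 (plus), each printed 5′ to 3′ on its gene's strand. Ccnb2, Cdk1, Hmmr and Ube2c are G2/M members that moved between cultures and have CHR with CCAAT. Bub1 has the same 2 kinds of motif and a different pattern of levels. Cdk1 and Hmmr hold E2F cores as well. Cdc6 and Rrm2 are S phase members that fell in primed_4d against both other cultures, and each holds an E2F core but no CHR letters. Ung, which also fell against both, and Birc5, a G2/M member that fell against rosette_LIM, hold none of the 3 kinds of motif in their windows.

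The libraries held 4614580 to 7688723 UMIs. The R1 primed_4d library stands apart, with a median of 11250 UMIs per well against 26868 to 40976 in the others, and 84 of its 188 wells under 6000 UMIs against 4 to 38. In that library 30 wells above 5 times its median depth held 43.42% of the UMIs. In R1 LIF_2i 2 such wells held 12.66%, and the other libraries had none. Counts summed over wells give such wells more weight. The same 188 well numbers occur in all 6 libraries, since the barcodes are those of the plate. Levels are given in CPM, each library's counts scaled to a common total with TMM factors, and serve to compare libraries for 1 gene. Sums of marker genes are in plain CPM, without TMM factors. The label of pluripotent cells was checked with Pou5f1, Sox2, Nanog, Utf1 and Dppa4, whose summed level was 1593 to 2144 CPM. Naive markers summed to 2116 to 2553 CPM in LIF_2i and rosette_LIM and to 218 to 298 in primed_4d. Primed markers summed to 54.0 to 97.0 CPM in LIF_2i and rosette_LIM and to 1116 to 1139 in primed_4d. These sums hide single markers that differed between rosette_LIM and LIF_2i. Of 4 primed markers 2 rose and 1 fell in rosette_LIM (50% and 25%, against 3.17% and 2.34% of all genes tested). Their log2 differences ran from −0.921 to 2.372. Of 5 naive markers 1 fell and 0 rose, with differences from −1.054 to 0.207. Markers of other cells summed to at most 14.3 CPM for primitive endoderm, 29.1 for 2-cell-like cells, 9.17 for trophectoderm and 13.2 for feeder fibroblasts, of which Col3a1 and Lum were at 0 in every library.

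**Figure D1:**
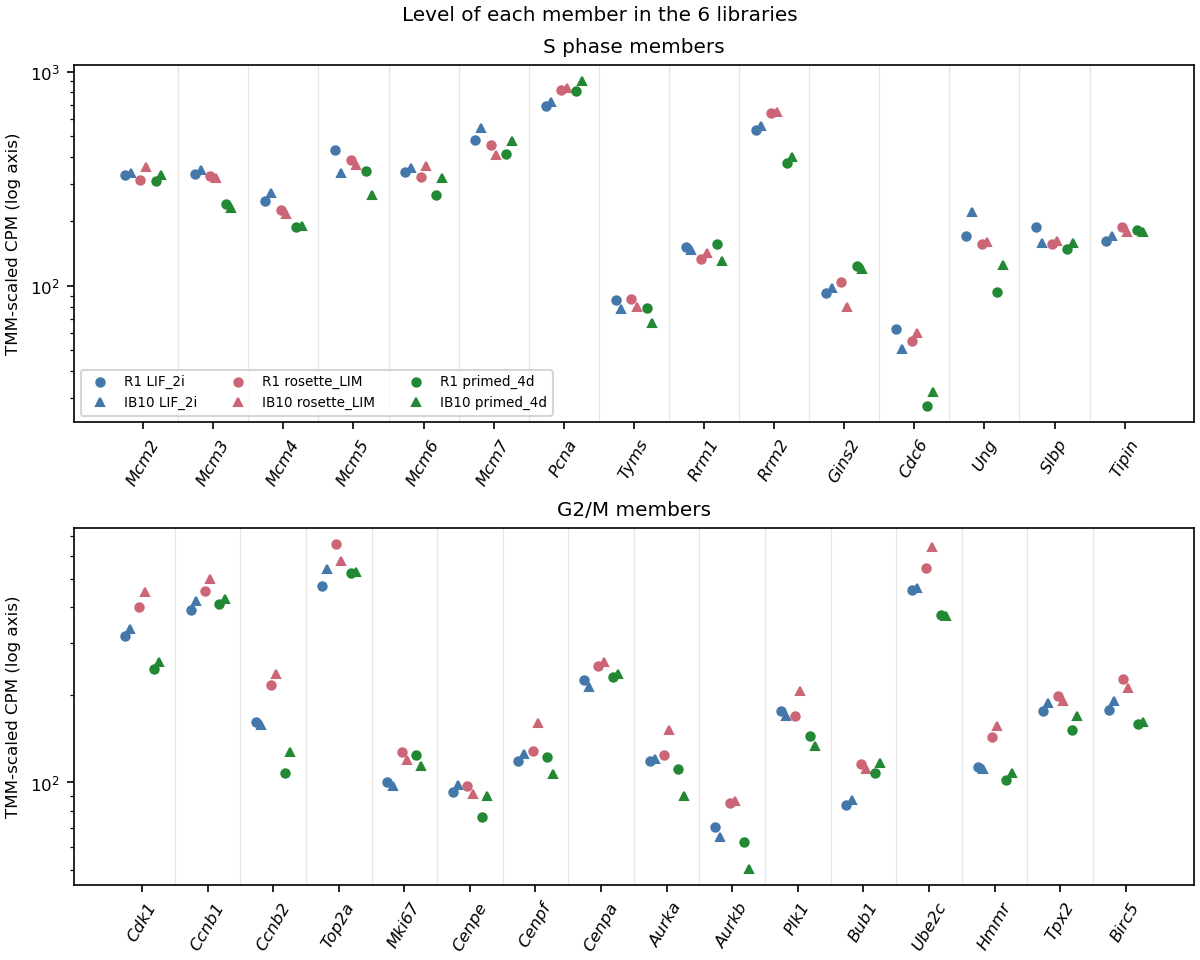
Level of each member in each library, in TMM-scaled CPM on a log axis, with 1 point per library (circles R1, triangles IB10), S phase members above and G2/M members below. Ccnb2 runs from 108 CPM in R1 primed_4d to 236 CPM in IB10 rosette_LIM, and Cdc6 from 27.4 CPM in R1 primed_4d to 62.9 CPM in R1 LIF_2i.

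The first comparison asks how the cell cycle genes of rosette_LIM cells differ from those of naive cells. Among the 16 G2/M members, Ccnb2, Hmmr and Cdk1 rose and none fell (18.8%, against 3.17% of the 12098 genes tested that rose and 2.34% that fell). Cdk1 is the kinase that drives entry into mitosis. Its level was 318 and 337 CPM in LIF_2i cells, 399.9 and 449 in rosette_LIM cells and 244 and 259 in primed_4d cells, naming R1 before IB10 here and throughout. Both rosette_LIM libraries lay above both LIF_2i libraries, and both primed_4d libraries below them. Cdk1 rose by 0.37 ± 0.10 (log2 ± SE, edgeR adjusted p = 0.0451). Ccnb2, cyclin B2, a regulatory subunit of that kinase, stood at 161 and 157 CPM in LIF_2i cells, 216 and 236 in rosette_LIM cells and 108 and 127 in primed_4d cells, the same order with no overlap between cultures. It rose by 0.50 ± 0.11 (edgeR adjusted p = 0.0175). Hmmr, a spindle protein that binds hyaluronan, was at 113 and 112 CPM in LIF_2i cells, 144 and 157 in rosette_LIM cells and 102 and 108 in primed_4d cells. The rosette_LIM libraries were again the highest, and Hmmr rose by 0.42 ± 0.11 (edgeR adjusted p = 0.0439).

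The other 13 G2/M members did not pass the test in this comparison. Their log2 differences ran from −0.01 ± 0.13 for Cenpe, a kinetochore motor, to 0.41 ± 0.12 for Bub1, a spindle checkpoint kinase (edgeR adjusted p = 0.0597). Ube2c, the ubiquitin-conjugating enzyme of the anaphase-promoting complex, was at 456 and 463 CPM in LIF_2i cells, 544 and 643 in rosette_LIM cells and 375 and 372 in primed_4d cells (0.37 ± 0.11, edgeR adjusted p = 0.0579). Aurkb, the kinase of the chromosomal passenger complex, was at 70.5 and 65.0 CPM in LIF_2i cells, 85.3 and 86.3 in rosette_LIM cells and 62.5 and 50.4 in primed_4d cells (0.34 ± 0.13, edgeR adjusted p = 0.159). For both genes the 2 rosette_LIM libraries were above all 4 others. Over the list, 15 of 16 members had a positive difference, with a median of 0.27 against 0.00 over all genes tested. For 14 of 16 both rosette_LIM libraries exceeded both LIF_2i libraries, where 24.9% of all genes did so and 23.5% lay wholly below. The exceptions were Cenpe and Plk1, whose groups overlapped.

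These directions hold relative to the rest of the transcriptome: with library sizes taken from the ERCC spike-ins, which shift the median of all genes by −0.545, 0 of 16 G2/M differences were positive, while their median stayed 0.28 above that of all genes. None of the 3 calls held without the R1 LIF_2i library, without the IB10 LIF_2i library, or with no replicate block for cell line, and 5 members passed with either 1 of the primed_4d libraries left out.

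No S phase member passed the edgeR test between rosette_LIM and LIF_2i, and DESeq2 called none. At an unadjusted edgeR p under 0.05 there were 5 of 15 (33.3%, against 19.7% of all genes tested). The median difference was −0.025, with 6 positive and 9 negative differences. Ribonucleotide reductase subunit Rrm2 (0.24 ± 0.10) and the sliding clamp Pcna (0.23 ± 0.10) had the most positive values, and uracil glycosylase Ung (−0.29 ± 0.12) and Mcm7 (−0.25 ± 0.11) the most negative. For Pcna, Rrm2 and Tipin both rosette_LIM libraries lay above both LIF_2i libraries, and for 5 members both lay below, that is 3 and 5 of 15 where 24.9% and 23.5% of all genes did so. Without the R1 rosette_LIM library, Ung and Mcm7 were called lower. The 2 lists therefore stood apart in counts, 0 of 15 against 3 of 16, but that difference between lists was not tested.

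**Figure D2:**
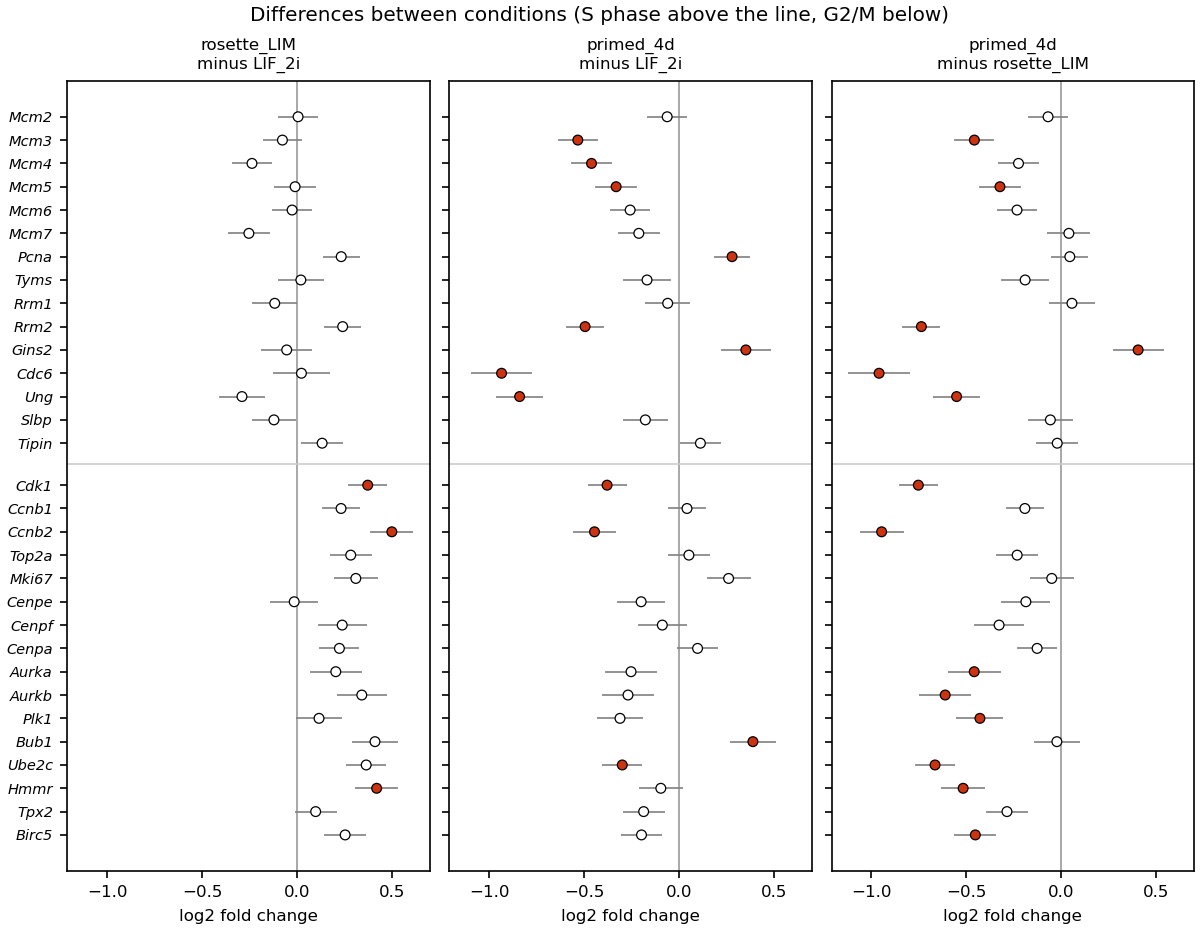
Log2 fold change of each member in the 3 comparisons between cultures (points, edgeR, TMM scaling; bars, ± 1 SE; red, adjusted p under 0.05), with S phase members above the grey line and G2/M members below. In rosette_LIM minus LIF_2i, 15 of 16 G2/M members are positive (0 of 16 with ERCC scaling). In primed_4d minus rosette_LIM all 16 are negative, also with ERCC scaling, but 2 are positive with wells thinned to 6000 UMIs. Comparisons share libraries.

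Primed_4d was compared with rosette_LIM, 2 cultures that share LIF and IWP2. They differ in FGF2 and Activin A against PD325901, in passage, and in time in the condition (4 days against 6 passages of R1 and 5 of IB10). These differences cannot be told apart. Here 8 of 16 G2/M members fell and none rose (50%, against 19.0% of all genes tested that fell and 17.1% that rose). Ccnb2 fell by 0.95 ± 0.12 (edgeR adjusted p = 2.02e-05). Cdk1 fell by 0.75 ± 0.10 and Ube2c by 0.66 ± 0.11 (edgeR adjusted p of 5.58e-05 and 0.000215). Transcripts of the passenger complex fell, for Aurkb (−0.61 ± 0.14) and for survivin, Birc5 (−0.45 ± 0.11), with edgeR adjusted p of 0.00274 and 0.00539. The mitotic kinases Aurka (−0.46 ± 0.14) and Plk1 (−0.43 ± 0.12) fell too, with edgeR adjusted p of 0.0189 and 0.0142, and so did Hmmr (−0.52 ± 0.12, edgeR adjusted p = 0.00299).

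All 16 differences were negative, with a median of −0.38 against 0.00 over all genes tested, and they stayed negative with ERCC scaling. With wells thinned to 6000 UMIs 2 were positive, and without the wells above 5 times the median depth 1 was. Leaving out R1 rosette_LIM or R1 primed_4d also made 1 positive. In 14 of 16 members both primed_4d libraries lay below both rosette_LIM libraries, as did 33.1% of all genes, and 32.4% of all genes lay wholly above. The other two were Bub1 and Mki67, whose groups overlapped. The 8 members that did not pass ran from −0.33 ± 0.13 for the kinetochore protein Cenpf to −0.02 ± 0.12 for Bub1. Among them were cyclin B1, Ccnb1 (−0.19 ± 0.10), topoisomerase Top2a (−0.23 ± 0.11), the spindle factor Tpx2 (−0.28 ± 0.11) and the proliferation marker Mki67 (−0.05 ± 0.12). Leaving out 1 library at a time left 6 to 9 G2/M members lower, and DESeq2 called 6. With ERCC scaling, where the SE of these differences grew to about 0.34, only Ccnb2 passed.

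Against LIF_2i, at the same passage numbers, 3 G2/M members fell in primed_4d and 1 rose, neither share above that of all genes. Ccnb2 (fell by 0.45 ± 0.12), Cdk1 (by 0.38 ± 0.10) and Ube2c (by 0.30 ± 0.11) fell, with edgeR adjusted p of 0.00729, 0.00942 and 0.0373. They were 18.8% of the list, against 19.6% of all genes tested that fell, a share near the background. Bub1 rose by 0.39 ± 0.12 (edgeR adjusted p = 0.0187), 1 of 16 where 18.3% of all genes rose. Bub1 was at 84.0 and 86.8 CPM in LIF_2i cells, 116 and 111 in rosette_LIM cells and 108 and 116 in primed_4d cells. Both other cultures lay above LIF_2i for this gene and overlapped each other, unlike Cdk1, Ccnb2 and Ube2c. With ERCC scaling, which shifts the median of all genes by −0.56, Bub1 turned to −0.16 and was not called.

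The remaining 12 G2/M members did not pass between primed_4d and LIF_2i. Mki67 had 0.26 ± 0.12 and Cenpa, the centromeric histone, 0.10 ± 0.11. Plk1 had −0.31 ± 0.12, Aurkb −0.27 ± 0.14 and Aurka −0.25 ± 0.14. The list's median was −0.19, with 5 positive and 11 negative differences. In 10 members both primed_4d libraries lay below both LIF_2i libraries and in 3 above, where 34.7% and 33.6% of all genes did so. The fall of Ube2c was not called without the wells above 5 times the median depth (edgeR adjusted p = 0.07), which are 2 R1 LIF_2i and 30 R1 primed_4d wells. No fall was called without the R1 LIF_2i library, and 1 without the IB10 LIF_2i or the IB10 primed_4d library.

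Among the S phase members, the origin licensing factor Cdc6 and 3 of the 6 helicase subunits, Mcm3, Mcm4 and Mcm5, fell in primed_4d against LIF_2i. Cdc6 was at 62.9 and 50.8 CPM in LIF_2i cells, 55.5 and 60.0 in rosette_LIM cells and 27.4 and 31.8 in primed_4d cells. The 2 primed_4d libraries lay far below the 4 others, which overlapped. It fell by 0.94 ± 0.16 against LIF_2i and by 0.96 ± 0.16 against rosette_LIM (edgeR adjusted p of 0.000375 and 0.000376). Mcm3, a helicase subunit, was at 333 and 348 CPM in LIF_2i cells, 327 and 318 in rosette_LIM cells and 240.2 and 230.3 in primed_4d cells, with primed_4d again lowest in both lines. It fell by 0.53 ± 0.10 and 0.46 ± 0.10 (edgeR adjusted p of 0.00102 and 0.00344). Mcm4 fell by 0.46 ± 0.11 against LIF_2i (edgeR adjusted p = 0.00382) and had −0.22 ± 0.11 against rosette_LIM. Mcm5 fell by 0.33 ± 0.11 and 0.32 ± 0.11 (edgeR adjusted p of 0.0281 and 0.034). Mcm2, Mcm6 and Mcm7 passed in neither comparison: against LIF_2i they had −0.06 ± 0.10, −0.26 ± 0.10 and −0.21 ± 0.11.

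The nucleotide enzymes did not move as 1 group. Rrm2, the subunit of ribonucleotide reductase whose level follows the cycle, was at 536 and 555 CPM in LIF_2i cells, 641 and 648 in rosette_LIM cells and 373 and 401 in primed_4d cells. The cultures did not overlap, with rosette_LIM highest and primed_4d lowest. Rrm2 fell in primed_4d by 0.49 ± 0.10 against LIF_2i and by 0.74 ± 0.10 against rosette_LIM (edgeR adjusted p of 0.00124 and 5.01e-05). Its partner Rrm1 had −0.06 ± 0.12 and 0.06 ± 0.12, and thymidylate synthase, Tyms, had −0.17 ± 0.12 and −0.19 ± 0.13. Neither passed. Ung, which removes uracil from DNA, was at 170.1 and 221 CPM in LIF_2i cells, 156 and 160.4 in rosette_LIM cells and 93.5 and 125 in primed_4d cells. Primed_4d was lowest in both lines, and Ung fell by 0.84 ± 0.12 and 0.55 ± 0.13 (edgeR adjusted p of 9.23e-05 and 0.00319).

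Pcna and Gins2 went the other way. Pcna, which tethers the polymerases, was at 688 and 722 CPM in LIF_2i cells, 819.6 and 837 in rosette_LIM cells and 812 and 899.9 in primed_4d cells. LIF_2i was lowest in both lines, and Pcna rose by 0.28 ± 0.10 in primed_4d (edgeR adjusted p = 0.0342). Gins2, a subunit of the replicative helicase complex, was at 92.3 and 97.9 CPM in LIF_2i cells, 104 and 79.9 in rosette_LIM cells and 124 and 119.6 in primed_4d cells. Both primed_4d libraries were the highest, and Gins2 rose by 0.35 ± 0.13 against LIF_2i and by 0.41 ± 0.13 against rosette_LIM (edgeR adjusted p of 0.0473 and 0.0279). With ERCC scaling the differences from LIF_2i turned to −0.27 for Pcna and −0.19 for Gins2. Neither rise over LIF_2i was called when any 1 LIF_2i or primed_4d library was left out. The histone mRNA binding protein Slbp (−0.18 ± 0.12) and the fork protector Tipin (0.11 ± 0.11) did not pass.

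In all, 2 of 15 S phase members rose (13.3%, against 18.3% of all genes) and 6 fell (40%, against 19.6%) between primed_4d and LIF_2i, with a median of −0.21. Between primed_4d and rosette_LIM 1 rose (6.67%, against 17.1%) and 5 fell (33.3%, against 19.0%), with a median of −0.19. Without the IB10 LIF_2i library 3 members were called lower than LIF_2i. The 3 comparisons share libraries, so a member low in primed_4d enters both comparisons with that culture and the counts are set side by side only.

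Counts of some members may hold reads of other rows or loci. The sources used here do not say whether counting used strand. Mcm7 overlaps Cops6, Gins2 overlaps Gse1 and Gm20388, and Ube2c overlaps Tnnc2 at the 3' end on the opposite strand. Pcna, Tyms, Ccnb1 and Ccnb2 have named pseudogenes. These 7 genes are uncertain in that respect. On GRCm38 with the GENCODE M21 annotation, members that changed and have no promoter printed include Ung at chr5:114130386-114139323 and Gins2 at chr8:120578633-120589304, with Mcm3 at chr1:20802968-20820312, Pcna at chr2:132249162-132253314 and Aurkb at chr11:69045647-69051664, all protein-coding.

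The other genes of the pathways were read from lists of 53 replication genes (52 tested), 60 mitosis genes and 22 cell cycle transcription regulators. Of the 60 mitosis genes 4 rose (6.67%, against 3.17% of all genes) and none fell (against 2.34%) in rosette_LIM against LIF_2i, with 48 positive differences and a median of 0.17 (relative to all genes, as for the members). Nusap1, a spindle protein, rose by 0.77 ± 0.12, the CDK subunit Cks1b by 0.51 ± 0.12 and the spindle motor Kif11 by 0.47 ± 0.12 (edgeR adjusted p of 0.00131, 0.0173 and 0.0338). Between primed_4d and rosette_LIM 28 fell and 2 rose (46.7% and 3.33%, against 19.0% and 17.1% of all genes), with a median of −0.30. Cep55, which acts in the final cut between daughter cells, fell by 1.67 ± 0.16, the cohesin protector Sgol2 by 1.00 ± 0.12 and the CDK1 phosphatase Cdc25c by 0.98 ± 0.20 (edgeR adjusted p of 1.4e-06, 2.04e-05 and 0.00126). The 2 that rose were the ubiquitin ligase G2e3 (1.73 ± 0.13) and Cks1b (0.51 ± 0.11), with edgeR adjusted p of 2.21e-07 and 0.00297. Against LIF_2i, 15 fell and 4 rose (25% and 6.67%, against 19.6% and 18.3%), led by Cep55 (−1.59 ± 0.16), Cdc25c (−0.89 ± 0.19) and the motor Kif22 (−0.72 ± 0.13) and by G2e3 (1.93 ± 0.13), Cks1b (1.02 ± 0.12) and Psrc1 (0.58 ± 0.12). G2e3 was at 29.5 and 33.2 CPM in LIF_2i cells, 35.0 and 37.1 in rosette_LIM cells and 115 and 124 in primed_4d cells, so that primed_4d stood above all 4 other libraries.

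Of the 52 replication genes 1 rose and 2 fell in rosette_LIM against LIF_2i (1.92% and 3.85%, near the 3.17% and 2.34% of all genes). The single-strand binding subunit Rpa3 rose by 0.49 ± 0.13, while DNA ligase Lig1 fell by 0.57 ± 0.12 and the phosphatase Cdc25a by 0.53 ± 0.13 (edgeR adjusted p of 0.0338, 0.0144 and 0.0261). In primed_4d against LIF_2i 5 rose and 14 fell (9.62% and 26.9%, against 18.3% and 19.6% of all genes). The largest rises were Pold3 (0.66 ± 0.13), a polymerase delta subunit, the dUTPase Dut (0.57 ± 0.10) and Rpa3 (0.47 ± 0.13). The largest falls were the origin protein Orc1 (−0.89 ± 0.15), thymidine kinase Tk1 (−0.87 ± 0.13) and the clamp loader subunit Rfc2 (−0.81 ± 0.13). Dut stood at 302 and 269 CPM in LIF_2i cells, 275 and 216 in rosette_LIM cells and 459 and 391 in primed_4d cells. Against rosette_LIM 6 rose and 8 fell (11.5% and 15.4%, both under the 17.1% and 19.0% of all genes), with Dut (0.79 ± 0.11), Pold3 (0.60 ± 0.14) and the histone chaperone Nasp (0.56 ± 0.10) at one end and Wdr76 (−1.19 ± 0.15), the mismatch repair gene Msh6 (−0.77 ± 0.12) and Rfc2 (−0.72 ± 0.13) at the other.

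Among the 22 regulators, Mybl2, the B-MYB that activates G2/M genes, was at 446 and 412 CPM in LIF_2i cells, 383 and 453 in rosette_LIM cells and 168 and 184 in primed_4d cells. The primed_4d libraries lay below all 4 others, which overlapped. Mybl2 fell in primed_4d by 1.29 ± 0.12 against LIF_2i and by 1.25 ± 0.12 against rosette_LIM (edgeR adjusted p of 7.68e-07 and 1.25e-06), and had −0.04 ± 0.11 between rosette_LIM and LIF_2i. Foxm1, the forkhead activator of the same genes, was at 36.5 and 32.7 CPM in LIF_2i cells, 32.9 and 34.0 in rosette_LIM cells and 42.6 and 30.3 in primed_4d cells, overlapping in all cultures, and passed in no comparison (log2 differences of −0.05 ± 0.17, 0.06 ± 0.17 and 0.11 ± 0.17). E2f1, an activator of S phase genes, fell by 0.55 ± 0.16 in primed_4d against LIF_2i (edgeR adjusted p = 0.0135) and had −0.30 ± 0.16 against rosette_LIM. The retinoblastoma gene Rb1, which restrains E2F, was the 1 regulator that rose in rosette_LIM against LIF_2i (0.94 ± 0.22, edgeR adjusted p = 0.0211). That is 4.55% of the 22, near the 3.17% of all genes tested that rose, and none fell.

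In primed_4d 5 regulators rose and 5 fell against LIF_2i (22.7% each way, near the 18.3% and 19.6% of all genes). The repressors E2f6 (1.35 ± 0.18), E2f7 (0.99 ± 0.22) and E2f8 (0.48 ± 0.17) led the rises, and E2f2 (−1.42 ± 0.32), Mybl2 and the NF-Y subunit Nfya (−0.73 ± 0.18) led the falls. E2f6 was at 19.9 and 27.3 CPM in LIF_2i cells, 25.2 and 21.9 in rosette_LIM cells and 65.0 and 55.7 in primed_4d cells, and E2f2 at 13.9 and 12.1 CPM in LIF_2i cells, 12.0 and 12.7 in rosette_LIM cells and 2.78 and 6.82 in primed_4d cells. Against rosette_LIM 3 rose, E2f6 (1.35 ± 0.19), E2f7 (0.63 ± 0.23) and E2f4 (0.44 ± 0.11), and 4 fell (13.6% and 18.2%, near the 17.1% and 19.0% of all genes), led by E2f2 (−1.35 ± 0.33), Mybl2 and Nfyc (−0.54 ± 0.12). Whether any of these genes bears on the members' levels was not tested.

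Single wells were compared after each of the 946 wells with at least 6000 UMIs was thinned to 6000, which left out 182 wells, from 4 in IB10 LIF_2i to 84 in R1 primed_4d. The G2/M members together gave a median of 19 and 17.5 UMIs per LIF_2i well, 21 and 22.5 per rosette_LIM well and 17 and 16 per primed_4d well. Both rosette_LIM libraries were above the others. The 90th percentile was also highest in rosette_LIM, at 31 and 30.7 UMIs for LIF_2i, 37.2 and 37 for rosette_LIM and 29.7 and 31 for primed_4d, while the 10th percentile was 10 and 11, 11.8 and 11.9, and 9 and 7.8. The S phase members gave medians of 25.5 and 26, 26 and 26, and 21.5 and 24, lowest in the primed_4d libraries. Within each library the sums of both lists were inversely related over wells, with Spearman's rho from −0.17 to −0.36. Wells of 1 library share their depth by thinning, and rho describes these wells only.

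**Figure D3:**
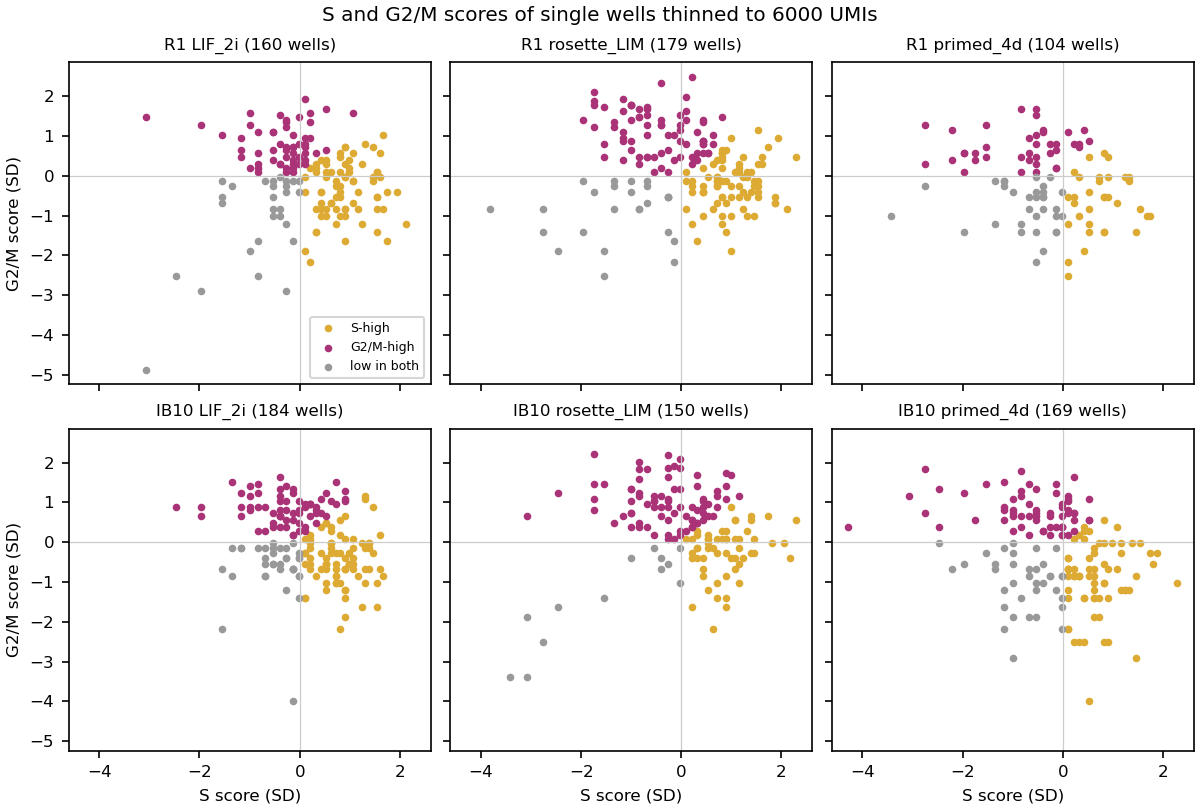
S score against G2/M score of single wells thinned to 6000 UMIs (SD units, 0 is the mean over libraries of equal weight), 1 panel per library, coloured by score class. The points form a continuous cloud with no gap between classes, and IB10 rosette_LIM has 80 of 150 wells in the G2/M-high class.

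To describe the wells further, each was given an S and a G2/M score, the log2 of 1 plus the list's sum, centred and scaled over libraries. A well is called G2/M-high where that score is above 0 and above the S score, S-high where the S score is above 0 and not below the other, and low in both otherwise. These classes are ranges of a score, not measured phases, and 14.5% to 26.1% of the wells of a library lay within 0.25 SD of a cut. G2/M-high wells were 35.0% (95% exact binomial interval 27.6 to 42.9) and 36.4% (29.5 to 43.8) in LIF_2i. In rosette_LIM they were 41.9% (34.6 to 49.5) and 53.3% (45.0 to 61.5), and in primed_4d 37.5% (28.2 to 47.5) and 37.3% (30.0 to 45.0). The intervals cover counting error only. Rosette_LIM was highest in both lines, by 6.9 points in R1 and 16.9 in IB10 over LIF_2i, and only IB10 rosette_LIM had an interval that lay wholly above those of both LIF_2i libraries.

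S-high wells were 47.5% and 44.0% of LIF_2i wells, 44.1% and 38.0% of rosette_LIM wells and 31.7% and 41.4% of primed_4d wells. Wells low in both were 17.5% and 19.6%, 14.0% and 8.7%, and 30.8% and 21.3%, highest in the primed_4d libraries of both lines. With 2 libraries a culture, an exact permutation test cannot go below p = 0.33, and none was run. The shares restate the members' levels, since the scores are made of them. The size of the rosette_LIM difference depended on the thinning depth. At 3000 UMIs a well the G2/M-high share was 41.2% against 33.9% in R1 and 45.1% against 40.0% in IB10, so that the mean difference from LIF_2i was 6.2 points, and at 10000 UMIs it was 7.8, in place of 11.9. Without thinning G2/M-high shares were 35.0% and 38.6%, 42.5% and 49.3%, and 39.4% and 37.9%. When the scores were built from the other replication and mitosis genes, with no member in them, the G2/M-high share in rosette_LIM was also the highest in each line. Primed_4d minus rosette_LIM was then −18.8 points in the mean over lines, in place of −10.2 (−4.4 in R1 and −16.1 in IB10), but −6.0 at 3000 UMIs, −4.9 at 10000 UMIs and −6.5 with scanpy scores. The S-high difference between primed_4d and rosette_LIM changed sign, from −4.5 to 16.0 points, so no order of S-high shares can be read between those cultures. Median depth before thinning differed between classes: in 5 of 6 libraries it was larger in G2/M-high than in S-high wells by over 3000 UMIs (41073 against 33828 in R1 LIF_2i, for example), and in R1 primed_4d it was 45089 against 45031.

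**Figure D4:**
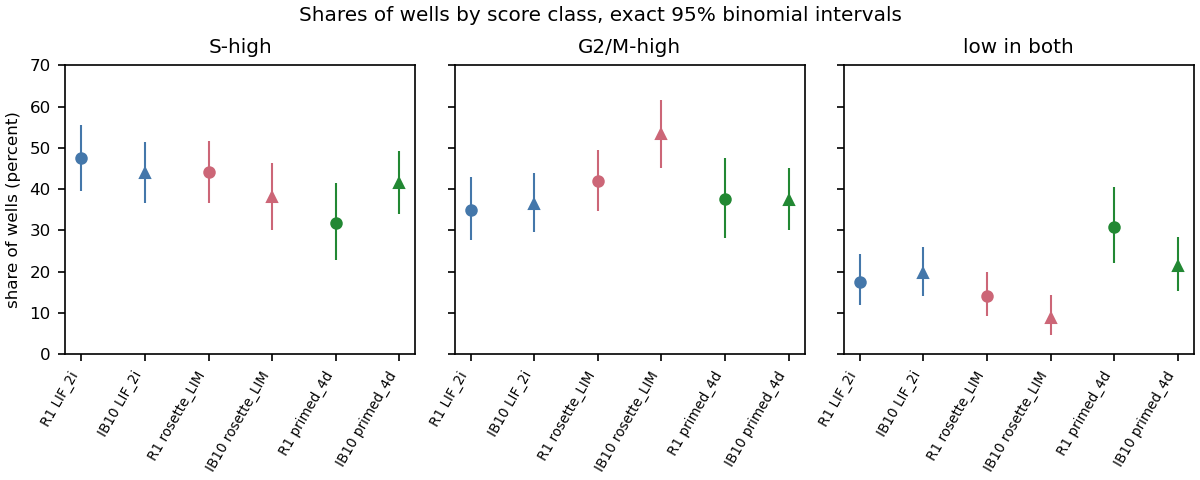
Share of wells in each score class per library (points; circles R1, triangles IB10) with exact 95% binomial intervals, in percent. The G2/M-high share is 41.9% and 53.3% in rosette_LIM against 35.0% to 37.5% elsewhere, with intervals that mostly overlap.

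Each member was then read across the classes with itself left out of the score. Of the G2/M members 12 of 16 were higher in G2/M-high than in S-high wells in all 6 libraries, and the other 4 in 5 libraries. The ratio of the means had a median of 1.68. Ube2c (2.18), Aurkb (2.16), Plk1 (2.06) and Cenpf (2.06) had the largest ratios. Birc5 (1.13), Ccnb2 (1.12) and Bub1 (1.16) had the smallest. The G2/M member with the largest differences between rosette_LIM and the other cultures, Ccnb2, was thus the one that told the classes apart least. Of the S phase members 13 of 15 were higher in S-high wells in all 6 libraries, with a median ratio of 1.36. Ung (1.82), Cdc6 (1.74), and Tipin (1.54) led, and Mcm7 (1.15), Mcm3 (1.18) and Mcm2 (1.19) were lowest. With classes cut from other genes only, 11 of 16 and 9 of 15 were higher in their own class in all 6 libraries, with median ratios of 1.53 and 1.36.

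Levels within a class also differed between cultures, but not in 1 direction for all members. Per thinned G2/M-high well Ube2c averaged 3.73 and 3.51 UMIs for LIF_2i, 4.79 and 5.04 for rosette_LIM and 3.43 and 3.92 for primed_4d. Per S-high well it averaged 2.04 and 1.90 UMIs for LIF_2i, 2.16 and 2.67 for rosette_LIM and 1.16 and 1.29 for primed_4d. Rosette_LIM was highest in both classes and both lines, and primed_4d was lowest in S-high wells. In G2/M-high wells Cdk1 averaged 2.40 and 2.39 UMIs for LIF_2i, 3.33 and 3.35 for rosette_LIM and 1.88 and 2.63 for primed_4d, and in S-high wells 1.72 and 1.56 UMIs for LIF_2i, 1.67 and 1.73 for rosette_LIM and 0.848 and 1.04 for primed_4d. Primed_4d was lowest in S-high wells in both lines, but IB10 primed_4d lay above LIF_2i in G2/M-high wells. Ccnb2 averaged 1.04 and 0.971 UMIs for LIF_2i, 1.38 and 1.63 for rosette_LIM and 0.976 and 0.934 for primed_4d in G2/M-high wells. In S-high wells its means were 0.961 and 1.01 UMIs for LIF_2i, 1.22 and 1.53 for rosette_LIM and 0.848 and 0.592 for primed_4d. Rosette_LIM lay above both other cultures in each class. Hmmr, which rose in rosette_LIM in the summed counts, went the other way in G2/M-high wells. It averaged 0.845 and 0.986 UMIs for LIF_2i and 0.795 and 0.899 for rosette_LIM. Aurka, Tpx2 and Cenpe were likewise lower there in rosette_LIM than in LIF_2i in both lines. Top2a, Mki67 and Birc5 differed in direction between the lines, and the other G2/M members were higher in both. In S-high wells Cdc6 averaged 0.519 and 0.329 UMIs for LIF_2i, 0.633 and 0.525 for rosette_LIM and 0.265 and 0.293 for primed_4d, and Ung 1.41 and 1.58 UMIs for LIF_2i, 1.21 and 1.21 for rosette_LIM and 1.00 and 0.958 for primed_4d. Primed_4d was lowest in both lines for both genes. These are means of few UMIs per well, the classes hold 13 to 81 wells a library, and no test was made on them. Ube2c, Cdk1, Ccnb2, Cdc6 and Ung are among the members called between cultures in sums over these same wells. Their order within a class is therefore no separate evidence. A class is an open range of a score, so scores inside it were not matched between cultures.

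**Figure D5:**
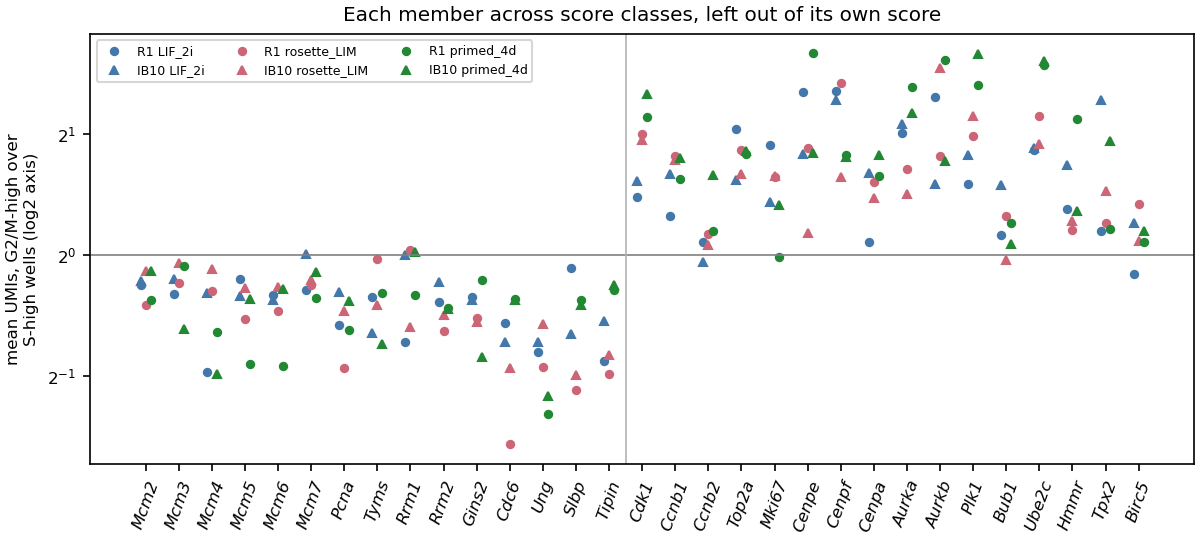
Mean UMIs of each member in G2/M-high over S-high wells in each library (log2 axis; circles R1, triangles IB10; S phase members left of the vertical line), with the member left out of its own score. G2/M members lie above 1 in nearly every library, with Ube2c at a ratio of means of 2.18 and Ccnb2 at 1.12, and S phase members lie mostly below 1.

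Between the lines, edgeR called no member (0.744% of all genes passed in either direction), and DESeq2 called none. At an unadjusted edgeR p under 0.05 there were 2 S phase members (13.3%, near the 10.7% of all genes tested) and no G2/M member. These were Mcm5 (−0.27 ± 0.09, IB10 minus R1) and Ung (0.28 ± 0.10), and each was called with either 1 of the rosette_LIM libraries left out. The median difference was −0.01 for the S phase list and 0.05 for the G2/M list. Within a line, 14 of 16 G2/M members were higher in rosette_LIM than in LIF_2i in both R1 and IB10, and none was lower in both. Between primed_4d and rosette_LIM 15 of 16 were lower in both lines. Of the S phase members 11 of 15 were lower in primed_4d than in LIF_2i in both lines, and 3 higher in both. The same count over all genes was not made, so these counts within lines have no background to be read against. Nothing in the labels says that a line was cultured more than once per condition, so p-values speak only to how far these libraries scatter, which may be technical.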

How the data were processed

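The deposited table holds an expected count for each of 19532 genes and 91 ERCC spike-ins in 1128 wells, which the authors made from UMIs of 6 bases: each value equals a whole number of the 4096 possible UMIs corrected for molecules that drew the same one, within 0.005, with no scaling for depth. The submitters' processing notes name BWA and mm10/GRCm38; for versions and the annotation, the sources used here say nothing. The labels state 192 wells per sample with 4 left empty. No ERCC row was tested, and none entered a library size except in the alternative with ERCC totals.

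Because wells are not replicates, the expected counts of a library's wells were added up and then rounded to whole numbers. edgeR 4.0.16 (R 4.3.3) fitted a quasi-likelihood model of culture and cell line to all 6 libraries, with TMM factors and filterByExpr at a minimum count of 10. It tested 12098 genes, all 31 members among them, two-sided with Benjamini-Hochberg adjustment over all genes and a threshold of 0.05. The SE is derived from the edgeR test. Cell line, which the labels give and which pairs the libraries across cultures, is the block. Deviations of same-line libraries correlated by 0.137, 0.178 and 0.081 across genes. DESeq2 1.42.0, other scalings, filters, the fit with no block and leaving out each library were alternatives, and so were scanpy 1.11.5 phase scores and scores from other genes; reading the members by classes cut from other genes was chosen after seeing the data. For single wells, values were turned back into UMIs and thinned to 6000 with a fixed seed. The scripts were tested on simulated data.

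The genes named are the 31 members, up to 3 rises and 3 falls per comparison from each of the 3 other lists, and E2f1, Foxm1 and Mybl2. The members and lists were chosen with earlier results of these data known.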

Additional observations from a re-analysis of the deposited data

Results flagged for a closer look

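For 3 S phase members the lines moved in opposite directions under the same change of culture, each by more than its 95% counting interval. Mcm5 between rosette_LIM and LIF_2i had a log2 difference of −0.149 in R1 (interval −0.228 to −0.069) and 0.126 in IB10 (0.04 to 0.212). Gins2 in the same comparison had 0.174 in R1 (0.011 to 0.337) and −0.293 in IB10 (−0.469 to −0.117). Mcm7 between primed_4d and rosette_LIM had −0.133 in R1 (−0.219 to −0.048) and 0.223 in IB10 (0.139 to 0.308). The difference between the lines was not tested, since each line has 1 library per culture, and the intervals cover counting error only. These members were picked by that rule from all 31, over the 3 comparisons between cultures. How many of all genes meet the same rule was not counted, so the number has no background.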

How the results depend on the processing

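Counts of members called depended on the setting as follows. G2/M members higher in rosette_LIM than in LIF_2i, 3 as reported, numbered 1 with no rescaling of the libraries, with DESeq2 and with wells thinned to 6000 UMIs, and 0 with ERCC totals. S phase members higher in primed_4d than in LIF_2i, 2 as reported, numbered 1 with no rescaling, without wells under 6000 UMIs and with thinned wells, and 0 with ERCC totals and with DESeq2. G2/M members higher there, 1 as reported, numbered 0 with ERCC totals and with DESeq2, and those lower, 3 as reported, numbered 6 with ERCC totals and 1 with thinned wells. Between primed_4d and rosette_LIM, S phase members higher, 1 as reported, numbered 0 with ERCC totals, DESeq2 and thinned wells. Those lower, 5 as reported, numbered 1 with ERCC totals and 1 with thinned wells, and G2/M members lower, 8 as reported, numbered 1 with ERCC totals. Thinning leaves 8784 genes tested and far fewer UMIs. Calls over all genes moved with the setting too. Between primed_4d and LIF_2i, 2368 genes fell as reported, 3479 with ERCC totals and 904 with thinned wells, and 2212, 672 and 842 rose. Between primed_4d and rosette_LIM, 2297, 1140 and 931 fell, and 2070, 897 and 738 rose. Between rosette_LIM and LIF_2i, 384, 42 and 67 rose. DESeq2 called 170 higher there, and 1343 and 1222 higher in primed_4d than in LIF_2i and in rosette_LIM.

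With no replicate block for cell line, the calls numbered 0 for G2/M members higher in rosette_LIM than in LIF_2i, and 0 for S phase members higher in primed_4d than in either other culture. The count for each other direction stayed within 1.5 times of the reported one in that fit. Of all genes, 162 rose in that fit between rosette_LIM and LIF_2i, in place of 384. In primed_4d 1882 rose against LIF_2i and 1735 against rosette_LIM, in place of 2212 and 2070.

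ERCC totals reversed the difference from LIF_2i for Cdk1 (−0.178), Ccnb2 (−0.052) and Hmmr (−0.133) in rosette_LIM and for Pcna (−0.267), Gins2 (−0.19) and Bub1 (−0.156) in primed_4d, none of them called.

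Leaving out 1 library at a time gave 0 to 5 G2/M members higher and 0 to 2 S phase members lower in rosette_LIM than in LIF_2i. In primed_4d against LIF_2i it gave 0 to 2 S phase members higher, 3 to 7 lower, 0 to 1 G2/M members higher and 0 to 4 lower. Against rosette_LIM it gave 0 to 1 S phase members higher, and between the lines 0 to 1 higher and 0 to 1 lower. A group left with 1 library was assumed to vary like the others.

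The S-high difference between rosette_LIM and LIF_2i, −4.7 points as reported, was −13.2 with scanpy scores and −19.7 with the other genes. Between primed_4d and rosette_LIM, −4.5 as reported, it reversed to 8.3 and 16.0. The G2/M-high difference between primed_4d and LIF_2i, 1.7 as reported, was 0.2 at 3000 UMIs, 2.9 at 10000, 4.5 with scanpy scores, and reversed to −0.1 with a cut at 0.5 SD and to −4.8 with the other genes. Between primed_4d and rosette_LIM it was −18.8 with the other genes, −6.0 at 3000 UMIs, −4.9 at 10000 and −6.5 with scanpy scores, −10.2 as reported. Between rosette_LIM and LIF_2i, 11.9 as reported, it was 6.2 at 3000 UMIs and 7.8 at 10000. The cause of these changes was not tested. With 2 libraries a culture, differences near the SE of about 0.10 were not detectable, and differences of a few SE could also fail to pass. S phase members ran from −0.29 to 0.24 between rosette_LIM and LIF_2i with none called. A missing call therefore does not show an unchanged level.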
